A study of Mus musculus with 2 samples.

Results

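The genes described here are 10 chemokine ligands: Ccl2, Ccl3, Ccl4, Ccl5, Ccl6, Ccl7, Ccl9, Ccl12, Cxcl2 and Cxcl16. They were taken by symbol from the 55357 genes of the count matrices, where all 10 had at least 1 UMI (unique molecular identifier, standing for 1 captured RNA molecule) in both libraries. The libraries were single-cell 3′ RNA libraries of CD45+ CD11b+ cortical cells, obtained by flow sorting at 8 weeks of age, 1 of moesin (Msn) knockout mice and 1 of wild-type mice, each pooled from 5 to 6 animals. Moesin is a cytoskeletal protein that links actin to the plasma membrane. C57BL/6 is the strain named for the knockout mice, and the cortex of both genotypes was digested with papain and DNase I at room temperature before Percoll and sorting. The sources used here do not state the deleted part of Msn, the strain of the wild-type mice or the sex of the animals.

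Chemokines are secreted proteins that direct the movement of leukocytes by binding G protein-coupled receptors. Most CC ligands of this list act on mononuclear cells, through receptors such as Ccr1 and Ccr2, while the CXC ligand Cxcl2 acts on neutrophils through Cxcr2. In the brain, microglia and the macrophages of the meninges and perivascular spaces are known sources of them, and Ccl3 and Ccl4 transcripts in microglia are known to rise with activation and with tissue handling.

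After a filter of at least 500 genes and at most 10% mitochondrial UMIs, the knockout library kept 7573 cells with a median of 5455 UMIs and the wild-type library 5577 cells with a median of 7178 UMIs. Msn, the targeted gene, stood at 20.8 CPM (UMIs of a gene per 1000000 UMIs; 19.4 to 22.2) in knockout and 321 CPM (317 to 326) in wild-type microglia-gated cells. Classes were gated on marker genes. Microglia (P2ry12 and Tmem119) numbered 4895 in the knockout and 5127 in the wild-type library, monocytes (Ace or Ly6c2) 537 and 47, border macrophages (Mrc1 and Cbr2) 84 and 17, and natural killer (NK) cells (Ncr1 and Nkg7) 44 and 0. Of further gates, neutrophils (S100a9 and Retnlg) numbered 20 in the knockout and 3 in the wild-type library and B cells (Cd79a and Cd79b) 21 and 0, T cells (Cd3e and Cd3g) 6 and 0, and cells that passed no gate 1127 and 233. Cells that passed more than 1 gate, 839 in the knockout and 150 in the wild-type library, entered no class. In both libraries all 12 microglial markers and all 8 border macrophage markers were found in at least 20% of the cells of their class, as were all 7 NK markers in the knockout NK cells. Of the 10 monocyte markers, 9 reached that share in the knockout and 10 in the wild-type monocytes. In microglia-gated cells, 4 erythroid markers summed to 601 CPM in the knockout and 83.4 CPM in the wild-type library and 4 choroid plexus markers to 73.1 and 1.17 CPM, and their part in the ligand values was not tested. The libraries shared 13 cell barcodes. With 1 library per genotype there is no replicate and no test, so every ratio below compares these 2 libraries, and all intervals are exact 95% intervals that cover counting error only.

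Of the 10 genes, 9 lie on mouse chromosome 11 (GRCm39, GENCODE M39). Ccl2 (81926397 to 81928279, plus strand), Ccl7 (81936532 to 81938351) and Ccl12 (81992645 to 81994466), all ligands of Ccr2, span 68.1 kb. Another group 1.42 Mb away spans 139 kb and holds Ccl5 (83416602 to 83425942, minus strand), Ccl9 (83463745 to 83473161), Ccl6 (83478708 to 83483913), Ccl3 (83538670 to 83540191) and Ccl4 (83553383 to 83555509, plus strand). Cxcl16 lies apart on chromosome 11 (70344517 to 70352620, minus strand) and Cxcl2 on chromosome 5 (91051730 to 91053797, plus strand). None of the 10 overlaps another annotated gene on its own strand. On the opposite strand Cxcl16 overlaps Med11 and Zmynd15, and Ccl3, Ccl5, Ccl6 and Ccl9 each overlap a noncoding gene, so antisense reads could enter their counts if strand was not used.

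Promoter windows were available for Ccl3, Ccl6, Ccl9, Ccl12 and Cxcl2 (RefSeq, GRCm38.p6). Both strands of each 300-base window, 250 before and 50 after the annotated start, were searched for 4 motifs: the kappa B letters (GGGA and TTCC with any 2 bases between), the AP-1 letters TGANTCA, the TATA box TATAAA and the C/EBP letters TTNNGCAA. Among 32851 such windows, the kappa B letters were present in 1.47%, the AP-1 letters in 7.81%, the TATA box in 13.6% and the C/EBP letters in 10.8%. The 250 bases before the start are printed for the pair of neighbours Ccl6 and Ccl9, whose levels relative to each other differed between the libraries, and for Ccl12 and Cxcl2, both called higher in knockout microglia, 5′ to 3′ along the gene with matches in capitals. The windows are chr11:83593088-83593337 (minus strand), chr11:83578637-83578886 (minus strand), chr11:82101595-82101844 (plus strand) and chr5:90903649-90903898 (plus strand), in that order of genes.
Ccl6: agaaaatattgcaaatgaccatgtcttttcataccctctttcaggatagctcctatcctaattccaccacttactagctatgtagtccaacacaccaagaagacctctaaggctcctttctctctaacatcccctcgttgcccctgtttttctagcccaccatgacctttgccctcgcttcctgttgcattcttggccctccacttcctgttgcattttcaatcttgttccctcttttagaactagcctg
Ccl9: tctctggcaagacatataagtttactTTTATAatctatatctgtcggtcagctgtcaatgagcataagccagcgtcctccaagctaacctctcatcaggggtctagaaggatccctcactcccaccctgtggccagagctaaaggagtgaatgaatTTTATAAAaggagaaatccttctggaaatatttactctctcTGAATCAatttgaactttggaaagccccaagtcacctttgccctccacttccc
Ccl12: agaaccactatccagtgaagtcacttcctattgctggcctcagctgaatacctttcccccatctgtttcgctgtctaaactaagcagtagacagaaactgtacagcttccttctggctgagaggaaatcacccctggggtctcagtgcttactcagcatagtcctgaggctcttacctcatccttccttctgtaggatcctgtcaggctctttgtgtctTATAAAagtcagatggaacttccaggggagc
Cxcl2: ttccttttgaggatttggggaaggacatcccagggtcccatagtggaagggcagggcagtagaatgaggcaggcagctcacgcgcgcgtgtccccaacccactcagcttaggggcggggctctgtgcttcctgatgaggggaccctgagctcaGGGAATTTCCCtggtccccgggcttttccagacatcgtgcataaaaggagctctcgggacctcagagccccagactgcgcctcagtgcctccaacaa
The Cxcl2 window held the kappa B letters on both strands, at 97 and 96 bases before the start, as 1 overlapping near-palindrome. Ccl12 had a TATA box 31 bases before its start. Ccl9 had the AP-1 letters 53 bases before its start and TATA boxes at 224, 94 and 92 bases before it, the last pair overlapping. The Ccl6 window and the Ccl3 window, not printed, held none of the 4 motifs. The full windows of Ccl6 and Ccl9 aligned locally over 74 columns with 58 identical bases (78.4%), a stretch that runs past both starts. A match describes the letters of the window and says nothing of a factor bound there.

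The 10 ligands were spread unevenly over the classes, as the panel plot of levels by class shows. Since 3′ UMIs count each molecule once, levels are set side by side between genes without a length correction. Ccl5, a T cell and monocyte attractant made by cytotoxic lymphocytes, stood at 27817 CPM (27116 to 28531) in knockout NK cells, against 93.1 CPM in knockout monocytes and 26.0 CPM in knockout microglia. NK cells also had the highest Ccl4 and Ccl3 levels of the knockout library, 4108 CPM (3841 to 4388) and 1798 CPM (1623 to 1986). Border macrophages led for the Ccr2 ligands, with 3206 CPM of Ccl7, 2633 CPM of Ccl12 and 1368 CPM of Ccl2 in the knockout library. Ccl6 was highest in neutrophils, at 3978 CPM (3443 to 4573) in the knockout and 1363 CPM (653 to 2506) in the wild-type library, and next in monocytes. In the wild-type library, whose border macrophages numbered 17, the highest levels of Ccl2, Ccl7 and Ccl12 were again in that class.

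**Figure D1:**
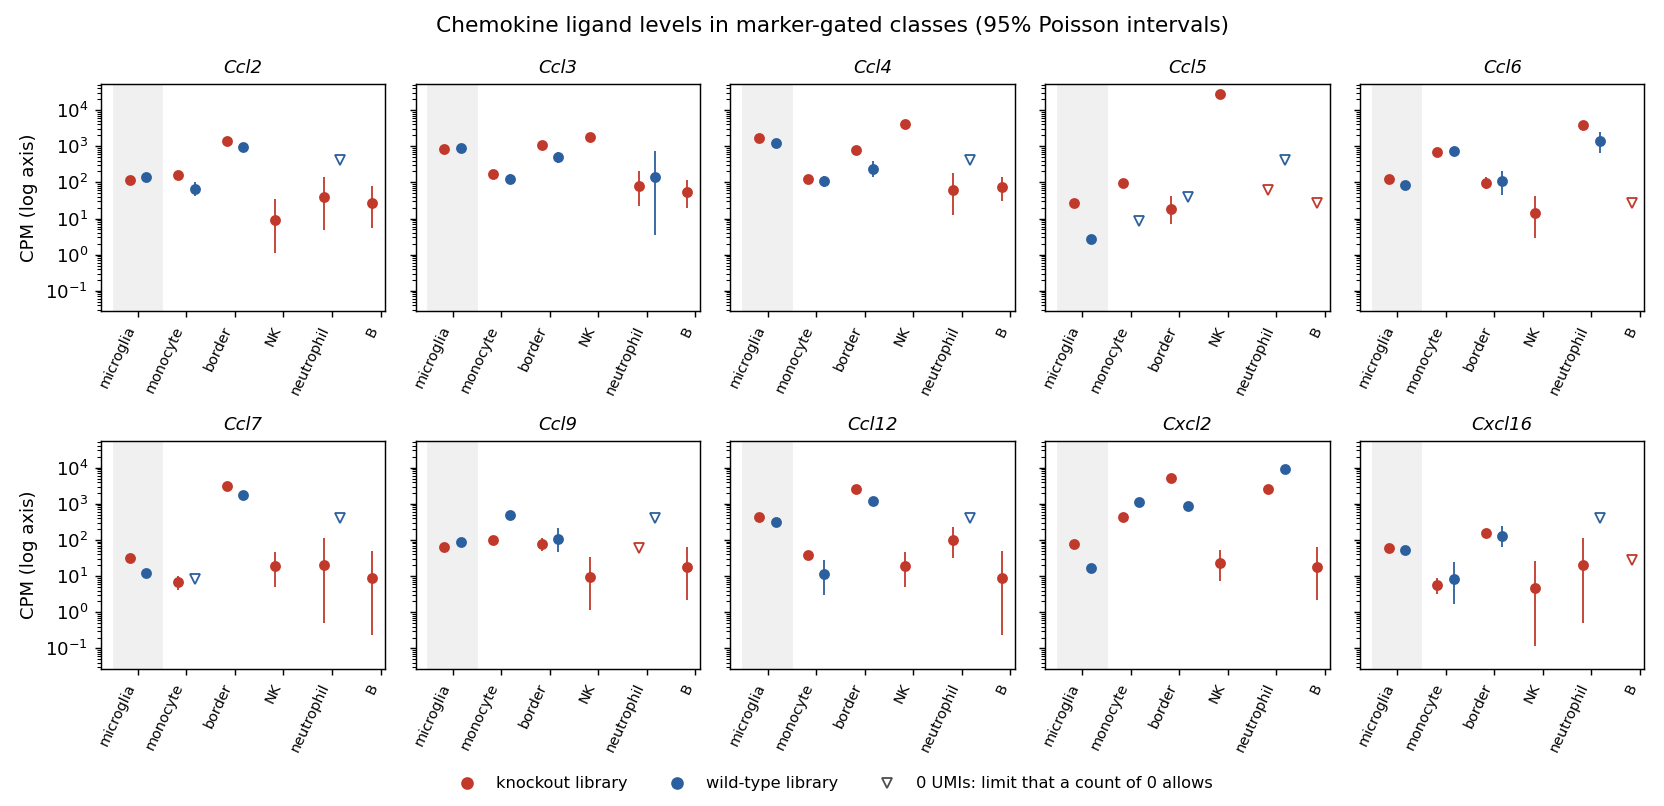
Level of each ligand in 6 gated classes, in CPM on a log axis, with knockout (red) left of wild-type (blue) and 95% Poisson intervals; microglia are shaded. Open triangles mark classes with 0 UMIs, at the level that 3 counts would give; Ccl5 is near 27817 CPM in knockout NK cells and the border macrophages stand highest for Ccl2, Ccl7 and Ccl12 in both libraries.

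Microglia, the most numerous class, carried most molecules of Ccl3 and Ccl4 in both libraries. They held 63.6% of all Ccl3 UMIs in knockout cells and 93.6% in wild-type cells, and 66.3% and 94.0% of all Ccl4 UMIs. By contrast, knockout microglia held 6.33% of the Ccl5 UMIs of that library, NK cells 34.9%, and cells passing more than 1 gate 54.1%. Wild-type Ccl5 amounted to 454 UMIs, of which 62.3% lay in cells that passed no gate, 259 of them in 1 cell. Of the Ccl7 UMIs, 60.1% in the knockout and 28.8% in the wild-type library lay in cells passing more than 1 gate. Cells gated as both microglia and border macrophage numbered 255 in the knockout and 83 in the wild-type library, and had 490.0 and 155 CPM of Ccl7.

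In microglia-gated cells, 6 of the 10 ligands were higher in the knockout library by 1.5-fold or more (Ccl4, Ccl5, Ccl6, Ccl7, Ccl12 and Cxcl2), 4 stayed within 1.5-fold (Ccl2, Ccl3, Ccl9 and Cxcl16) and none was lower. Ratios are given relative to the median of 8732 measured genes (10 CPM or more in at least 1 library and 10 UMIs or more over both), whose log2 ratio of CPM was -0.30. Over those genes, 15.3% were higher and 12.3% were lower by the same rule. The median relative log2 ratio of the 10 was 0.73, against 0 for all measured genes. The 10 were chosen with earlier results of these data known, so their contrast with all genes is a description and not independent support. On the CPM scale itself 3 were higher (Ccl5, Ccl7 and Cxcl2), against 4.71% of measured genes, and none was lower, against 30.7%. The plot of log2 ratios shows both scales.

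**Figure D2:**
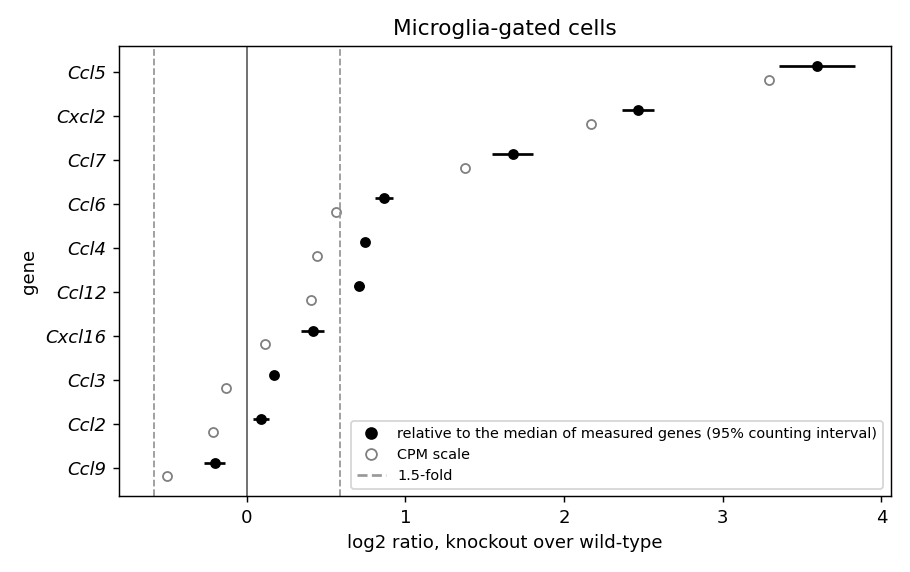
Log2 ratio of each ligand in microglia-gated cells, knockout over wild-type. Black points are relative to the median of measured genes, with 95% counting intervals, grey circles are on the CPM scale, and dashed lines mark 1.5-fold; Ccl5, Cxcl2 and Ccl7 lie beyond the line on both scales.

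Ccl4, a macrophage inflammatory protein that attracts monocytes and T cells, stood at 1668 CPM (1655 to 1680) in knockout and 1226 CPM (1217 to 1234) in wild-type microglia, a relative log2 ratio of 0.74 (0.73 to 0.76). That ratio was under 1.5-fold, at 0.53, in microglia with no UMI of another class's gate gene, at 0.58 with each cell weighted equally, and at 0.57 in microglia with no UMI of an NK, border macrophage or monocyte marker. Its neighbour Ccl3, another macrophage inflammatory protein, stood at 830.1 CPM (821 to 839) in knockout and 908 CPM (901 to 916) in wild-type microglia, a relative log2 ratio of 0.17 against -0.13 on the CPM scale, so its direction turns with the scaling. The pair therefore differed in balance: knockout microglia held 2.01 Ccl4 UMIs per Ccl3 UMI (1.98 to 2.04) and wild-type microglia 1.35 (1.34 to 1.36). The ratio of the pair needs no scaling between libraries. It was 1.86 in knockout and 1.25 in wild-type cells of more than 1 gate, and 1.70 and 1.45 in cells of no gate. In the other classes it was 2.28 in knockout NK cells and, with overlapping intervals, 0.693 in knockout and 0.486 in wild-type border macrophages and 0.746 in knockout and 0.844 in wild-type monocytes.

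The Ccl4 difference lay in cells with many molecules rather than in how many cells had any. With each cell thinned to 2000 UMIs, which left out 348 knockout and 136 wild-type microglia, Ccl4 was found in 60.0% of knockout (58.5 to 61.4) and 62.4% of wild-type microglia (61.1 to 63.8). Unthinned, the shares were 73.5% and 80.8%. Cells with 10 or more thinned Ccl4 UMIs made up 8.25% of knockout microglia (7.46 to 9.08) and 4.47% of wild-type microglia (3.91 to 5.08). For Ccl3 that share was 2.35% in the knockout and 2.54% in the wild-type library, and any Ccl3 UMI was found in 50.7% and 56.5% of thinned cells (67.9% and 78.7% unthinned). B cells, gated only in the knockout library, showed Ccl3 in 2 of 21 thinned cells (9.52%) and Ccl4 in 6 of 21 (28.6%). Their median was 4360 UMIs, against 5711 in knockout and 7386 in wild-type microglia. Whether the B cell shares are background or the cells' own RNA was not tested. In B cells the microglial markers outside the gate stood at 5.29% of their level in knockout microglia, Ccl3 at 6.55% and Ccl4 at 4.35%. In knockout border macrophages those markers stood at 19.7%, Ccl4 at 45.8% and Ccl3 at 133%.

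**Figure D3:**
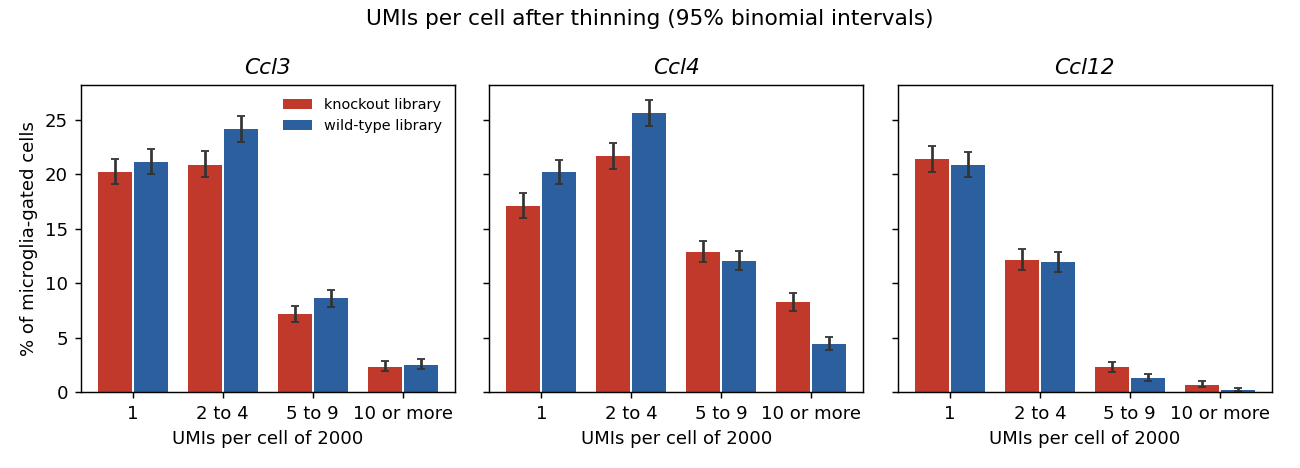
Share of microglia-gated cells with 1, 2 to 4, 5 to 9, and 10 or more UMIs of Ccl3, Ccl4 and Ccl12 after thinning each cell to 2000 UMIs, knockout (red) left of wild-type (blue), with 95% binomial intervals. The share of cells with 10 or more Ccl4 UMIs is 8.25% in the knockout and 4.47% in the wild-type library, while for Ccl3 it is 2.35% and 2.54%.

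Depth moved with both genes. In microglia of under 2000 UMIs, Ccl4 stood at 476 CPM in the knockout and 699 CPM in the wild-type library, a relative log2 ratio of -0.47. From 2000 UMIs to under 4000 the levels were 852 and 887 CPM (0.25), to under 8000 1616 and 1284 CPM (0.60), to under 15000 1700 and 1217 CPM (0.78), and at 15000 UMIs or more 1828 and 1222 CPM (0.90). The relative log2 ratio of Ccl3 ran over the same bands from -0.87 in the shallowest to 0.28 in the deepest. In all 5 bands there were more Ccl4 UMIs per Ccl3 UMI in knockout than in wild-type cells, with overlapping intervals in the shallowest. Whether depth has a part in the Ccl4 ratio was not tested beyond these bands.

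**Figure D4:**
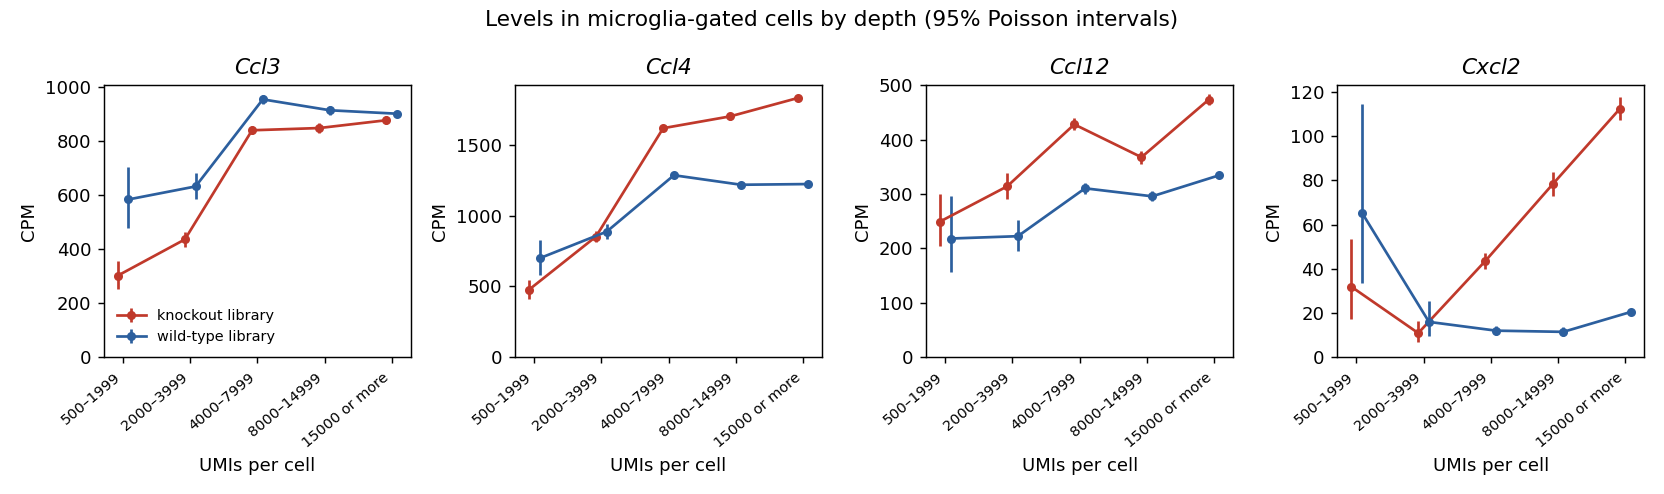
Levels of Ccl3, Ccl4, Ccl12 and Cxcl2 in microglia-gated cells by UMIs per cell, knockout (red) and wild-type (blue), with 95% Poisson intervals. Ccl4 crosses between the libraries at the shallow end, from 476 CPM in knockout and 699 CPM in wild-type cells of under 2000 UMIs to 1828 and 1222 CPM in the deepest.

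Ccl5 stood at 26.0 CPM (24.5 to 27.6) in knockout and 2.65 CPM (2.27 to 3.09) in wild-type microglia, the largest relative log2 ratio of the 10 (3.59). It rested on few cells: 4 of the 4895 knockout microglia held over 50% of its 1082 UMIs, and 6 of 5127 wild-type microglia over 50% of 168 UMIs. After thinning it was found in 2.20% of knockout and 0.281% of wild-type microglia (6.50% and 1.46% unthinned), and in 0 of 21 B cells, which allows up to 14.3%, so no order is read from its share. NK markers moved with it. The 7 NK markers summed to 26.3 CPM in knockout and 5.07 CPM in wild-type microglia, where Ncr1, Nkg7 and Klre1 were at 0. Per UMI of the 5 NK markers outside the gate, there were 1.18 Ccl5 UMIs in knockout microglia, 1.28 in knockout NK cells and 1.14 in the 28 knockout cells gated as both, against 0.523 in wild-type microglia. In microglia with no UMI of any NK marker the relative log2 ratio of Ccl5 was 2.06, and the gene was then under the level at which genes were measured.

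The ligands of Ccr2 split. Ccl12, a mouse monocyte attractant, stood at 424 CPM (418 to 430.3) in knockout and 319.6 CPM (315 to 324) in wild-type microglia, a relative log2 ratio of 0.71. Border macrophages, which had the highest Ccl12, have markers that summed to 160.0 CPM in knockout and 57.0 CPM in wild-type microglia. The Ccl12 ratio was 0.60 in microglia with no UMI of a border marker and 0.55, under 1.5-fold, in those with no UMI of another class's gate gene. In the 5 depth bands the ratio lay between 0.28 and 0.82, and its interval included 0 in the shallowest. Ccl12 was found in 36.6% of thinned knockout microglia and 34.4% of wild-type microglia, against 60.1% and 65.4% unthinned and 1 of 21 B cells (4.76%). Ccl2, the main attractant of classical monocytes, stood at 118 CPM (114 to 121) in knockout and 136 CPM (134 to 139) in wild-type microglia, a relative log2 ratio of 0.09 against -0.21 on the CPM scale. It was found in 12.5% of thinned knockout and 16.2% of wild-type microglia (27.4% and 39.5% unthinned; 4.76% of B cells). There were 0.278 Ccl2 UMIs per Ccl12 UMI in knockout microglia and 0.427 in wild-type microglia, with intervals that did not overlap.

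Ccl7, another Ccr2 ligand and a neighbour of Ccl2, stood at 31.5 CPM (29.8 to 33.2) in knockout and 12.1 CPM (11.29 to 13.02) in wild-type microglia, a relative log2 ratio of 1.68. Over 50% of its UMIs lay in 26 knockout and 41 wild-type microglia, and it was found in 2.79% and 1.60% of thinned cells (8.07% and 5.73% unthinned), against 0 of 21 B cells, so here too no order is read from the share. Markers of border macrophages, the class with the highest Ccl7, moved with it: the 8 markers summed to 160.0 CPM in knockout and 57.0 CPM in wild-type microglia, with none at 0 in either. In microglia with no UMI of a border marker the relative log2 ratio of Ccl7 was 0.75. By depth, the Ccl7 ratio was 0.25 (-0.57 to 1.12) from 2000 to under 4000 UMIs and 2.25 at 15000 UMIs or more. Under 2000 UMIs the wild-type cells had 0 Ccl7 UMIs. There were 0.267 Ccl7 UMIs per Ccl2 UMI in knockout microglia and 0.0889 in wild-type microglia, against 2.34 and 1.93 in border macrophages.

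Ccl6 and Ccl9, adjacent genes whose products bind Ccr1 in mice, moved apart. Ccl6 stood at 121 CPM (118 to 125) in knockout and 82.1 CPM (79.9 to 84.4) in wild-type microglia, a relative log2 ratio of 0.86. Ccl9 stood at 63.4 CPM (61.0 to 65.9) in knockout and 89.8 CPM (87.5 to 92.2) in wild-type microglia, a relative log2 ratio of -0.20. Knockout microglia thus held 1.91 Ccl6 UMIs per Ccl9 UMI (1.82 to 2.01) and wild-type microglia 0.914 (0.880 to 0.949). The ratio was higher in the knockout library in each of the 5 depth bands, at 1.68 against 0.911 in cells of 15000 UMIs or more, although the intervals overlapped in cells of under 2000 UMIs. In thinned cells Ccl6 was found in 19.3% of knockout and 14.3% of wild-type microglia (47.6% and 48.2% unthinned; 0 of 21 B cells). Ccl9 was found in 11.8% of thinned knockout and 16.4% of wild-type microglia (33.1% and 48.4% unthinned), against 2 of 21 B cells (9.52%). Neither was carried by a few cells: over 50% of Ccl6 UMIs took 514 knockout and 590 wild-type microglia, and over 50% of Ccl9 UMIs 434 and 581. Monocyte markers, of a class with more Ccl6, summed to 76.9 CPM in knockout and 16.2 CPM in wild-type microglia. In microglia with no UMI of an NK, border macrophage or monocyte marker the relative log2 ratio of Ccl6 was 0.75.

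Cxcl2, a neutrophil attractant, stood at 76.7 CPM (74.0 to 79.4) in knockout and 17.1 CPM (16.1 to 18.1) in wild-type microglia, a relative log2 ratio of 2.47. In each library 17 microglia held over 50% of its UMIs, and the cell with the most had 276 UMIs in the knockout and 124 in the wild-type library. It was found in 3.47% of thinned knockout and 1.40% of wild-type microglia (8.07% and 5.27% unthinned). These shares were no higher than those of knockout B cells (1 of 21, 4.76%) and NK cells (3 of 44, 6.82%). Those counts are too small to tell whether the microglial shares are background, so no order is read from the share. In bands of depth its relative log2 ratio was -0.95 and -0.24 under 4000 UMIs, with intervals that included 0, and 2.12 to 3.06 above. Border macrophage markers moved with it as with Ccl7. In microglia with no UMI of a border marker the relative log2 ratio of Cxcl2 was 1.37, and in those with no UMI of an NK, border macrophage or monocyte marker it was 0.95.

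Cxcl16, a membrane-anchored ligand of Cxcr6, stood at 58.9 CPM (56.6 to 61.3) in knockout and 54.4 CPM (52.6 to 56.3) in wild-type microglia, a relative log2 ratio of 0.41. It was found in 10.8% of thinned microglia of both libraries (32.2% of knockout and 38.1% of wild-type cells unthinned) and in 0 of 21 B cells. Border macrophages had 157 CPM of it in the knockout and 133 CPM in the wild-type library, with overlapping intervals, and monocytes 5.55 and 8.43 CPM.

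In monocyte-gated cells the picture differed, though on 47 wild-type cells. Of the 8 ligands that were measured there (Ccl7 and Cxcl16 were under the floor), 4 were higher in the knockout library (Ccl2, Ccl3, Ccl5 and Ccl12) and 2 were lower (Ccl9 and Cxcl2), against 20.2% of 7731 measured genes higher and 22.8% lower. Their median relative log2 ratio was 0.54, with Ccl5 at its bound. On the CPM scale 3 were higher, against 11.6%, and the same 2 lower, against 32.4%. Ccl9 stood at 98.4 CPM (87.9 to 109.8) in knockout and 478 CPM (409 to 555) in wild-type monocytes, a relative log2 ratio of -2.04. It was found in 11.5% of thinned knockout and 46.8% of wild-type monocytes (26.4% and 70.2% unthinned, at medians of 5522 and 7471 UMIs), against the 9.52% of B cells. Monocytes with Ace and no Ly6c2, a pattern of patrolling monocytes, had 26.1 CPM of Ccl9 in the knockout and 132 CPM in the wild-type library. Those with Ly6c2 and no Ace, a pattern of classical monocytes, had 242 and 664 CPM, so Ccl9 was lower in knockout cells of both kinds. The mix differed as well, with 284 cells with Ace alone and 102 with Ly6c2 alone in the knockout and 19 and 20 in the wild-type library.

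Ccl6 did not follow Ccl9 in monocytes: it stood at 699.6 CPM (671 to 729) in knockout and 745 CPM (658 to 840.0) in wild-type cells. There were 7.11 Ccl6 UMIs per Ccl9 UMI in knockout (6.32 to 8.02) and 1.56 in wild-type monocytes (1.28 to 1.90), the same direction as in microglia. Ccl2 stood at 158 CPM (144 to 172) in knockout and 67.4 CPM (43.2 to 100.4) in wild-type monocytes, a relative log2 ratio of 1.47. Ccl3 stood at 165 CPM (152 to 179.9) in knockout and 126 CPM (92.2 to 169) in wild-type monocytes, a relative log2 ratio of 0.63 whose interval began at 0.19. Microglial markers outside the gate stood in monocytes at 4.16% of their microglial level in the knockout and 5.85% in the wild-type library, and Ccl3 at 19.9% and 13.9%.

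The calls of Ccl12, Ccl5 and Cxcl2 in monocytes also rested on few cells. Ccl12 had 128 UMIs in knockout monocytes, 70 of them in 1 cell, and 4 UMIs in wild-type monocytes, a relative log2 ratio of 2.05 (0.66 to 3.95). Ccl5 had 302 UMIs in knockout monocytes, over 50% of them in 2 cells, and 0 in wild-type monocytes, where the limit that a count of 0 allows makes it at least 11-fold higher in CPM. NK markers outside the gate went with it, with 1.44 Ccl5 UMIs per marker UMI in knockout monocytes, while the wild-type monocytes had 25 such UMIs, all of Klrd1, with the other NK markers at 0. Cxcl2 stood at 434 CPM (411 to 457) in knockout and 1110 CPM (1003 to 1225) in wild-type monocytes, a relative log2 ratio of -1.11. Of the 395 wild-type Cxcl2 UMIs 156 lay in 1 cell. Without the 2 cells of each library with the most Cxcl2 the levels were 335 and 521 CPM and the relative log2 ratio -0.40, within 1.5-fold, whereas Ccl9 without its top 2 cells stayed at -1.88. Ccl4, which was within 1.5-fold at 123 CPM in knockout and 107 CPM in wild-type monocytes (0.45), had a relative log2 ratio of 1.09 without its top 2 cells. Cxcl2 also differed by kind of monocyte, with 239.5 CPM in knockout and 104 CPM in wild-type cells with Ace alone, and 733 and 2007 CPM in cells with Ly6c2 alone.

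Border macrophages of the wild-type library numbered 17, too few for a ratio, and their values stand side by side. Cxcl2 had 5162 CPM (4916 to 5418) in knockout and 850.5 CPM (655 to 1086) in wild-type border macrophages. Ccl7 had 3206 CPM (3012 to 3408) and 1794 CPM (1504 to 2123), Ccl12 2633 and 1236 CPM, Ccl3 1102 and 492 CPM, and Ccl4 764 and 239 CPM, each with intervals that did not overlap. Ccl2 had 1368 CPM (1243 to 1503) in knockout and 930.2 CPM (725 to 1175) in wild-type border macrophages, again apart. The share of all genes with intervals apart was not taken in this class. No result about the ligands as a group is therefore read from these values, and the intervals leave out the spread between cells. Ccl6 and Ccl9 were low in this class, at 97.0 and 75.1 CPM in the knockout and 106 CPM each in the wild-type library, with overlapping intervals. After thinning, Cxcl2 was found in 36 of 61 knockout (59.0%) and 4 of 13 wild-type border macrophages (30.8%), with overlapping intervals (47.6% and 41.2% unthinned, at medians of 3949.5 and 4346 UMIs). Neutrophils, the cells that Cxcl2 attracts, themselves had 2632 CPM of it (2201 to 3123) in 20 knockout cells and 9266 CPM (7195 to 11746) in 3 wild-type cells.

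Within microglia-gated cells some ligands shared cells. Among thinned cells with Ccl3, 72.7% of knockout and 73.4% of wild-type cells also had Ccl4, against 46.9% and 48.1% of cells without Ccl3, a ratio of 1.55 in the knockout and 1.53 in the wild-type library. Ccl2 was found in 28.3% of knockout and 43.8% of wild-type cells with Ccl7, 2.35 and 2.77 times the share in cells without it. Ccl7 was found in 20 of 158 knockout cells with Cxcl2 (12.7%) and 5 of 70 wild-type cells (7.14%, 2.36 to 15.9), 5.19 and 4.69 times the share in the rest. Taken in the same direction, Ccl7 in cells with Ccl2 had 2.76 times the share in the rest in the knockout and 4.01 times in the wild-type library. The wild-type shares of Ccl7 in cells with Cxcl2 and in cells with Ccl2 (4.32%, 3.03 to 5.96) had overlapping intervals, so these 2 pairs are not ranked there. Ccl7 and Cxcl2 are both high in border macrophages. Both ratios between the libraries were lower in cells without border markers (0.75 for Ccl7 and 1.37 for Cxcl2). The part of border macrophage RNA in the co-detection of Ccl7 and Cxcl2 was not tested, and no order was read above from the share of Cxcl2. Ccl6 and Ccl9 showed little co-detection. In both libraries Ccl9 in cells with Ccl6 had 1.18 times its share in cells without it. No member was found in 10.6% of thinned knockout and 10.1% of wild-type microglia, and 3 or more in 35.8% and 38.2%. These cells share a library and a depth, and they are not replicates.

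**Figure D5:**
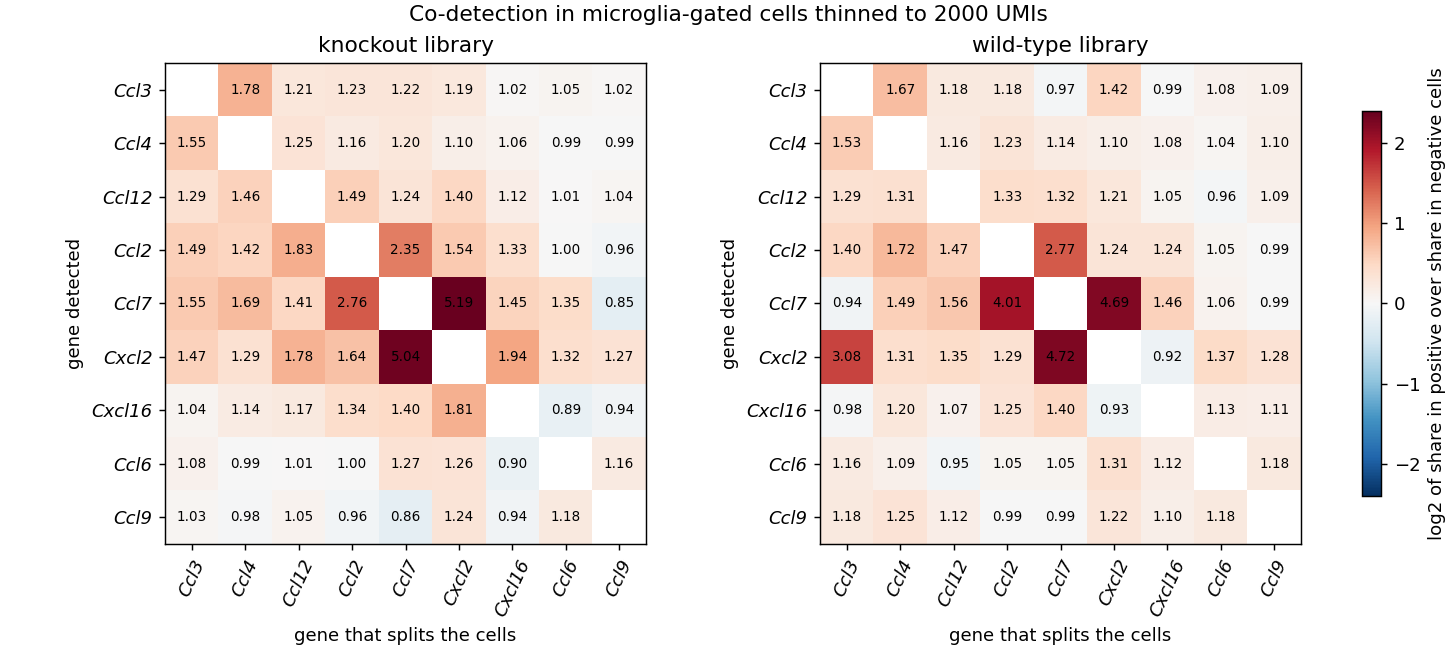
Share of thinned microglia with the row gene among cells with the column gene, divided by the share among cells without it, knockout library left and wild-type library right; Ccl5 is left out. Ccl7 among cells with Cxcl2 is at 5.19 in the knockout and 4.69 in the wild-type panel, and among cells with Ccl2 at 2.76 and 4.01. The Ccl6 and Ccl9 rows lie between 0.86 and 1.31.

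Correlation over the 4547 knockout and 4991 wild-type thinned microglia, on log2(UMI + 1), was taken with genes at 50 CPM or more in both libraries, which leaves out Ccl7, Cxcl2 and Ccl5 as partners. Ccl3 and Ccl4 correlated at r = 0.46 in both libraries. After each other, the genes most like them were H3f3b, a histone gene, Nfkbia, the NF-kB inhibitor, Atf3, a stress-induced transcription factor, and Id2, a transcriptional repressor, with r of 0.16 to 0.25 in the knockout and 0.16 to 0.22 in the wild-type library. For Cxcl2 the leading genes were Cd74, the invariant chain of MHC class II (0.26 in the knockout and 0.22 in the wild-type library), Lyz2, lysozyme, and Apoe, apolipoprotein E. Ccl7 came closest to Ccl2 (0.13 and 0.10), then Apoe and Lyz2. For Ccl6 the leading gene was Tyrobp, an adaptor of microglial receptors, at 0.07 in the knockout and 0.06 in the wild-type library, and the leading genes of Ccl9 and Cxcl16 were as weak, which at these counts is no finding.

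Other genes of the pathway were followed in microglia from lists written from general knowledge, though with earlier results of these data known. Of 23 chemokine receptors 5 were measured, 2 were higher in the knockout library and none was lower, against 15.3% and 12.3% of all measured genes (without the median scaling, 1 higher and 2 lower, against 4.71% and 30.7%). Cx3cr1, the microglial fractalkine receptor, stood at 3513 CPM in knockout and 5339 CPM in wild-type microglia (-0.30). On the CPM scale it was lower by 1.5-fold. The 2 higher were Ccrl2, an atypical receptor, at 256 and 184 CPM (0.77), and Ccr6, named after its value was seen, at 51.6 and 20.3 CPM (1.64). Ccr1 had 13.7 CPM in knockout and 12.3 CPM in wild-type microglia, and Ccr2 was under the floor.

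Activation genes went in both directions. Of 19 measured immediate early genes 8 were higher, 2 lower and 9 within 1.5-fold in knockout microglia, against 15.3% higher and 12.3% lower over all measured genes, with a median relative log2 ratio of 0.41 (without the median scaling, 4 higher and 5 lower, against 4.71% and 30.7%). Jun stood at 12953 CPM in knockout and 11574 CPM in wild-type microglia (0.46), Fos at 12319 and 7446 CPM (1.03) and Atf3 at 5219 and 3543 CPM (0.86). Of 17 measured NF-kB and cytokine genes 5 were higher, 1 lower and 11 within 1.5-fold, against the same 15.3% and 12.3%, with a median of 0.24 (without the median scaling, 3 and 3). Nfkbia stood at 1891 CPM in knockout and 1214 CPM in wild-type microglia (0.94), Rel at 288 and 379 CPM (-0.10) and Nfkbiz, the gene called lower, at 250 and 464 CPM (-0.59). The part of these genes, and of tissue handling, in the chemokine values was not tested. Within each library, microglia with Ccl4 set against those without it after thinning had 4 of 18 NF-kB and cytokine genes higher by 1.5-fold in the knockout and 3 of 18 in the wild-type library, where 1.07% and 0.873% of all genes were. For immediate early genes the counts were 1 and 2 of 19.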

How the data were processed

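Cortical CD45+ CD11b+ cells of each genotype were measured as 1 10x 3′ v2 library (chemistry per the labels' protocols). The deposited matrices hold raw UMI counts per gene and barcode, which the authors made with Cell Ranger 7.0.0 per the file headers (6.0 per the labels' protocols) against GRCm39. Seurat is named in the submitters' processing notes. Totals were 67575835 UMIs in the knockout and 68576464 in the wild-type library, over 9038 and 5842 barcodes, and cells with fewer than 500 genes or over 10% mitochondrial UMIs were left out (1465 and 265). Groups follow the sample labels.

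From the counts, cells were gated on at least 2 UMIs over the gate genes, at least 1 of each where both are required. No doublet caller was run; cells of more than 1 gate were set apart, and the deepest 6% left out as an alternative. UMIs were summed per class and library, scaled to CPM, and compared as log2 ratios relative to the median measured gene. Classes under 20 cells in a library got no ratio. Intervals are exact Poisson or binomial (Clopper-Pearson) at 95%, and since a droplet's UMIs share a cell they cover counting error only. Shares were taken after thinning cells to 2000 UMIs. The ratio step was tested on simulated data. Of the listed genes outside the 10, the 3 with the highest CPM in knockout microglia of each list and those sharing a cluster or receptor with a member are named; likeness ranks the 5 genes with the highest value of the lower of the libraries' correlations, at 50 CPM or more. Alternatives covered scaling, floor, fold, depth, cell filters, gates and top cells. The members and lists were chosen with earlier results of these data known. Python 3.11.15, numpy 2.4.6, scipy 1.17.1, pandas 2.3.3 and Biopython 1.88 were used.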

Additional observations from a re-analysis of the deposited data

Results flagged for a closer look

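Barcodes that the cell filters left out, 1465 in the knockout and 265 in the wild-type library, held UMIs of all 10 ligands in the knockout library, led by Ccl4 at 491 CPM in the knockout and 763 CPM in the wild-type library. For Ccl4 and Ccl3 the knockout level was lower there, with intervals that did not overlap. The Ccl4 intervals were 449 to 535 CPM in the knockout and 648 to 893 CPM in the wild-type library. Ccl3 stood at 428 CPM (389 to 469) in the knockout and 630 CPM (526 to 749) in the wild-type library. In 2 other ligands the knockout level was higher, again with intervals that did not overlap. The share of all genes with intervals apart was not taken in these barcodes, so no result about the ligands as a group is read. Ccl5 stood at 44.2 CPM (32.4 to 58.9; 46 of 1040852 UMIs) in the knockout library, against 0 of 203139 UMIs in the wild-type library, which allows up to 14.8 CPM. Cxcl2 stood at 74.0 CPM (58.4 to 92.5; 77 UMIs) in the knockout and 14.8 CPM (3.05 to 43.2; 3 UMIs) in the wild-type library.

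Cxcl2 had opposite directions in 2 classes, with a relative log2 ratio of 2.47 in microglia-gated cells and -1.11 in monocyte-gated cells, knockout over wild-type. The difference between the classes was not tested, and without the 2 monocytes of each library with the most Cxcl2 the monocyte value was -0.40.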

How the results depend on the processing

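Over 13 alternative settings the number of ligands higher in knockout microglia, 6 as reported, lay between 3 and 6. It was 3 on the CPM scale and 3 with a 2-fold rule, and no ligand was lower under any of the 13. Ccl4 dropped under 1.5-fold with each cell weighted equally (0.58) and with no UMI of another class's gate gene allowed (0.53), as did Ccl12 under that gate (0.55). The relative log2 ratio ranged from 2.65 to 4.56 for Ccl5, from 1.49 to 2.59 for Cxcl2, from 0.92 to 1.80 for Ccl7 and from 0.78 to 0.98 for Ccl6. Of alternatives chosen after seeing the data, microglia with no UMI of an NK marker gave 5 higher (without Ccl5), those with none of a border macrophage marker 6, and those with none of an NK, border macrophage or monocyte marker 4 (without Ccl4 and Ccl5). In monocytes 3 to 6 ligands were higher and 2 to 3 lower over 12 alternatives, and the strict gate left too few wild-type cells for a value. Shares of all measured genes were taken only for the 1.5-fold rule as reported and on the CPM scale (15.3% and 4.71% higher in microglia). The counts under the other settings have no such share and only show how the calls move. No alternatives were run for border macrophages, which had no ratio. The share of Ccl4 among cells with Ccl3 was 62.8% in the knockout and 61.1% in the wild-type library at 1000 UMIs, and 83.4% and 87.5% unthinned. No paired analysis was possible because each genotype is 1 library. Beyond the stated values the cause of these shifts was not tested.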

Other observations

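Border macrophages also held other ligands of the family. Pf4, the platelet factor that marks these macrophages, stood at 5695 CPM (5436 to 5962) in 84 knockout and 2525 CPM (2179 to 2911) in 17 wild-type border macrophages, and at 78.2 and 10.7 CPM in microglia, where it was the 1 higher of 4 measured among 28 further ligands, against 15.3% of all measured genes. Cxcl1, which like Cxcl2 acts on Cxcr2, stood at 764 CPM (671 to 866) in knockout border macrophages, in 22 of 84 cells, and at 39.9 CPM (8.22 to 116) in wild-type ones, in 1 of 17. Ccl8, a neighbour of Ccl2, had 51 UMIs in 11 knockout and 1 UMI in 1 wild-type border macrophage. Ccl24, an eosinophil attractant, did not follow them, at 326 CPM (266 to 394) in the knockout and 399 CPM (269 to 569) in the wild-type library.

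Some receptors of these ligands were measured in the same cells. Ccr2 was highest in monocytes, at 210.0 CPM (195 to 226) in knockout and 745 CPM (658 to 840.0) in wild-type cells. The mix of monocytes with Ace alone and with Ly6c2 alone differed between the libraries, as given above. Its part in the Ccr2 values was not tested. Cxcr2 stood at 884 CPM (642 to 1187) in knockout and 954 CPM (384 to 1965) in wild-type neutrophils, and Ccr1 at 864 and 818 CPM there. Cxcr6, the receptor of Cxcl16, had 7 UMIs in knockout and 20 in wild-type microglia.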
